A study of Mus musculus with 18 samples.

Results

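The serum amyloid A, pentraxin, orosomucoid and haptoglobin genes were followed in mouse liver: Saa1, Saa2, Saa3, Saa4, Apcs, Crp, Orm1, Orm2, Orm3 and Hp. They are 10 of the 21153 genes named on the array and were picked by name as classical acute-phase genes, and every probe whose accession belongs to a member was taken. Each member has 1 probe, and each of these lay well above background on all 18 arrays, so all 10 members were among the 19597 genes tested.

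Liver RNA came from 18 male C57BL/6 mice, hybridised singly to single-colour Agilent whole-genome arrays. From 6 weeks of age they ate a diet with 10% (LFD) or 60% (HFD) of its energy as fat, and after 10 weeks some received methotrexate at 50 mg/kg intraperitoneally in 5 rounds (MTX50), with livers taken 1 week after the last. The untreated groups were 4 LFD and 4 HFD mice, and the treated ones 5 LFD-MTX50 and 5 HFD-MTX50 mice. The LFD and HFD mice are labelled as untreated, and the labels name no vehicle injection. A level here is the log2 intensity of a probe minus the 75th percentile of its array, so a value of 1 lies 2-fold above that percentile. A probe's level depends on its own hybridisation, so levels are compared between mice and never between genes. All 8 hepatocyte markers read were above background in every mouse, and their mean level lay between 5.29 and 6.12.

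The acute-phase response is the change in plasma proteins that the liver makes when tissue is inflamed or injured. Interleukin-6 acting through STAT3, and interleukin-1 and tumour necrosis factor acting through NF-kB and the C/EBP factors, raise transcription of the positive acute-phase genes in hepatocytes. SAA proteins ride on high-density lipoprotein, pentraxins are pattern-recognising discs that bind ligands in a calcium-dependent way, orosomucoid (alpha-1-acid glycoprotein) is a lipocalin that carries lipophilic drugs, and haptoglobin captures free haemoglobin. In mice serum amyloid P (Apcs) is the acute-phase pentraxin, whereas Crp responds little.

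The SAA genes lie together on chromosome 7, with 2 other RefSeq genes and 0 protein-coding ones between the first and last of them. The orosomucoid genes form a cluster on chromosome 4, Apcs and Crp are neighbours on chromosome 1, and Hp is on chromosome 8. RefSeq promoter windows (GRCm38.p6, 250 bases before to 50 after the gene start) were matched for 8 of the 10 members and not for Orm1 and Hp. The windows below are shown because Saa1 with Saa2, and Orm2 with Orm3, are near copies whose probes moved together in the mice, and because Saa3 and Apcs carry 4 of the 5 calls below. They read 5′ to 3′ on the strand of the gene, and capitals mark every match on either strand to the C/EBP motif TTNNGNAA or the STAT3 motif TTCNNNGAA.
Saa1 (chr7:46742931-46743230, minus strand): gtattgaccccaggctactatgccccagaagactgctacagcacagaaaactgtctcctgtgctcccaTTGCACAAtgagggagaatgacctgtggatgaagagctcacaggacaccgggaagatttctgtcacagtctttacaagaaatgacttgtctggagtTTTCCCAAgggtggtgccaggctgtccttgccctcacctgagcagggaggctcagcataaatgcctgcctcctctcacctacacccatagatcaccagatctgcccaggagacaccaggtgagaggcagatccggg
Saa2 (chr7:46751583-46751882, plus strand): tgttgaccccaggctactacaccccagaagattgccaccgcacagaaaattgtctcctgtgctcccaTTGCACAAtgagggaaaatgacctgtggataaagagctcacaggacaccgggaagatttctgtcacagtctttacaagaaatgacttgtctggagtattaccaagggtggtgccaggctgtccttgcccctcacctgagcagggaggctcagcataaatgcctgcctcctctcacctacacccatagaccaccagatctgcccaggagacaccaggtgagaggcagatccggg
Saa3 (chr7:46715627-46715926, minus strand): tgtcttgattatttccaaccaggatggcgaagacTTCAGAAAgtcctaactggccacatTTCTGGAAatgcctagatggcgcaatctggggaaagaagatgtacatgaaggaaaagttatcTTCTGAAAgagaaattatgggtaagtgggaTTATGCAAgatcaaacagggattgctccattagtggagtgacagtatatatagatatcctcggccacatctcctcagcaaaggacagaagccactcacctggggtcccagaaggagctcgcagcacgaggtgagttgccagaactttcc
Apcs (chr1:172895005-172895304, minus strand): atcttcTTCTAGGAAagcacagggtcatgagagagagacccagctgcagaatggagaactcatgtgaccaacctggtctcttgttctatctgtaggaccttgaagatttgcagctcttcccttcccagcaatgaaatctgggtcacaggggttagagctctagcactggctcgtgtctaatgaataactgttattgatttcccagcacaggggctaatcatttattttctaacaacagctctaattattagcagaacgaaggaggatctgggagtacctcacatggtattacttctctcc
Orm2 (chr4:63362199-63362498, plus strand): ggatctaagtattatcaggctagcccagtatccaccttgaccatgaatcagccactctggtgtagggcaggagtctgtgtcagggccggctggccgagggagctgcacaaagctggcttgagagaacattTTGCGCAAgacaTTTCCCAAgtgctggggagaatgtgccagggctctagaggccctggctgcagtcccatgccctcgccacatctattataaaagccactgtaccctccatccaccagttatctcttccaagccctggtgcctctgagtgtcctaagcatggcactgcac
Orm3 (chr4:63355908-63356207, plus strand): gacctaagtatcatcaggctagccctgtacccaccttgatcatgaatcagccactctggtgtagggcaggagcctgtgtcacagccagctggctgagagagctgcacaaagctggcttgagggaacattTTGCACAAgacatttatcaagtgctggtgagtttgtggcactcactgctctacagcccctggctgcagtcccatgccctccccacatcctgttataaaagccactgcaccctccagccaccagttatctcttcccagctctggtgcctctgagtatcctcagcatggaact

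The Saa1 and Saa2 windows were 95.3% identical over their alignment, and the Orm2 and Orm3 windows 86.6%, while no other SAA pair passed 54.2%. The C/EBP motif matched 4 times in the Saa3 window, 2 times in those of Saa1, Saa4 and Orm2, and 1 time in those of Saa2, Crp and Orm3. The Apcs window had 0 such matches and the 1 STAT3 match among the 8 windows. No window held the NF-kB consensus. No match overlapped another. Of the 32851 promoter windows in the RefSeq table, 40.7% held the C/EBP motif, 8.30% the STAT3 motif and 8.46% the NF-kB consensus, so a C/EBP match is common. A match is a run of letters and not a measured binding site, and its absence says only that these letters are not in these 300 bases.

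In the model of all 4 groups the drug went with higher Apcs and Hp on LFD and with higher Apcs and Saa3 on HFD. HFD alone went with higher Saa3 there. The model, fitted with limma to all 4 groups and adjusted by Benjamini-Hochberg over all probes kept, called 1 of the 10 members in HFD vs LFD (28.3% of all genes tested were called), 2 of 10 in LFD-MTX50 vs LFD (28.1% of all genes) and 2 of 10 in HFD-MTX50 vs HFD (11.0% of all genes). These shares of the members are of the order of the background, and the 5 calls were all toward higher levels. The median log2 difference over the 10 members was 0.16, 0.62 and 0.99 in these comparisons, against 0.08, 0.10 and −0.04 over all genes tested. Without HFD-MTX50 mouse 5, described below, the median in HFD-MTX50 vs HFD was 0.53 (−0.04 over all genes). In HFD-MTX50 vs HFD all 10 members had a positive difference, although 8 of them missed the threshold.

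**Figure D1:**
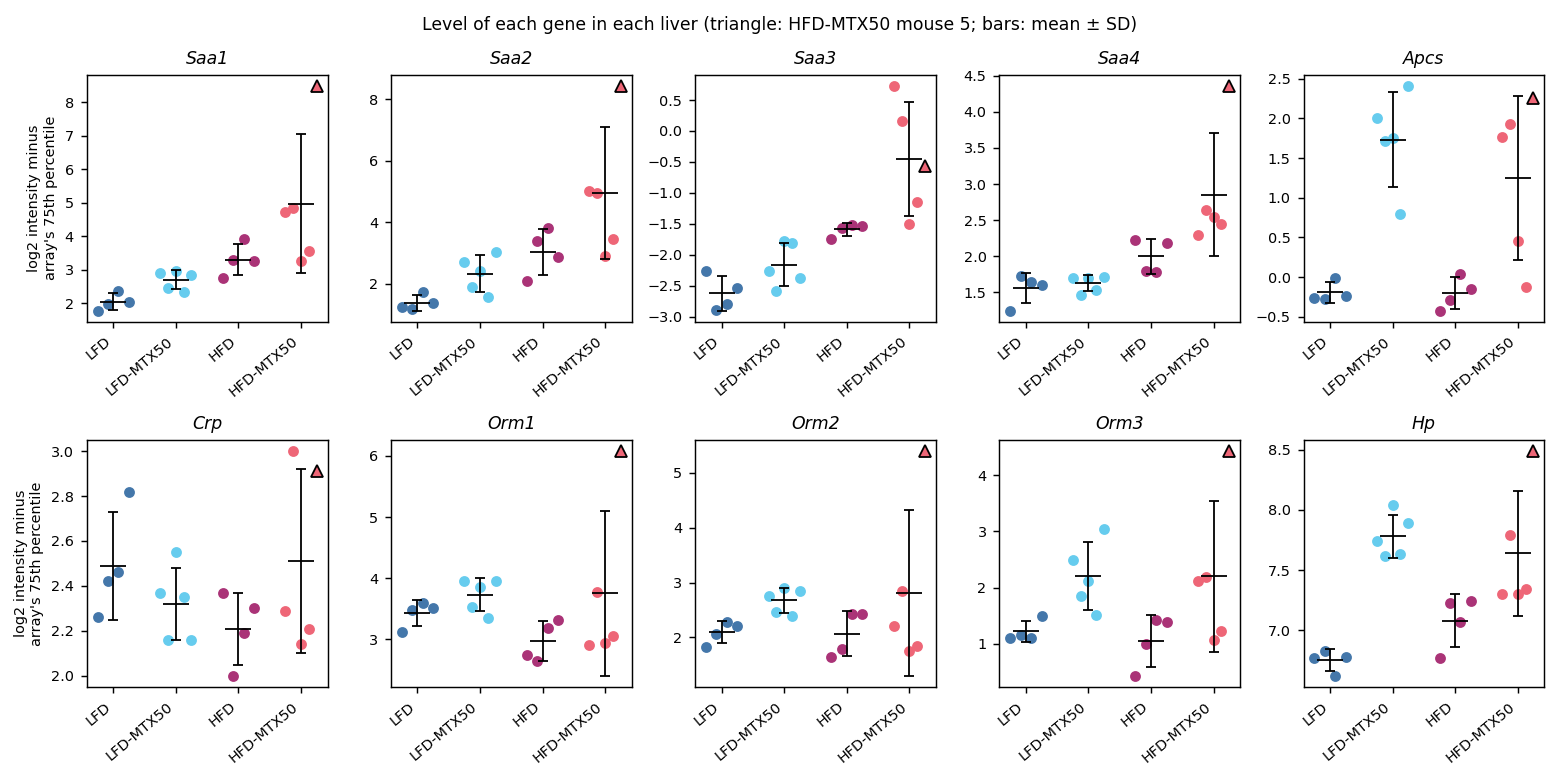
Level of each of the 10 genes (log2 intensity minus the array's 75th percentile, own scale per panel) in each liver by group, with the group mean and SD as black bars; points within a group run from mouse 1 to the last mouse, and the triangle is HFD-MTX50 mouse 5. That mouse had the highest level of 7 of the 10 genes (the share of all genes is not given), while Apcs was raised in most treated mice of both diets.

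Arrays sat on 6 slides, which shape what the comparisons can show. LFD mice filled slide 1, LFD-MTX50 mice slides 2 and 3, and HFD mice 3 and 4 shared slide 5 with HFD-MTX50 mice 1 and 2, the only slide with more than 1 group. HFD mice 1 and 2 sat on slide 4 and HFD-MTX50 mice 3 to 5 on slide 6. Slide and group therefore cannot be told apart in the comparisons with LFD, nor slide and mouse where mice of 1 group sat on different slides. With a random slide effect none of the 3 calls against LFD held, while both calls in HFD-MTX50 vs HFD did, and the values follow beside each gene. No LFD mouse shared a slide with another group, so the layout itself widens the SE of those comparisons under this model. In LFD-MTX50 vs LFD the SE rose from 0.40 to 0.56 for Apcs and from 0.20 to 0.30 for Hp. Losses there and below therefore cannot show that calls against LFD are weaker than those on HFD. The 18 arrays had 83.8% to 90.6% of probes above background and 0 saturated spots.

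HFD-MTX50 mouse 5 stood apart from the other 17 livers. It was the highest of all 18 for Saa1, Saa2, Saa4, Orm1, Orm2, Orm3 and Hp, and it was not the highest for Saa3, Apcs or Crp. Saa1 read 20.9-fold and Saa2 20.7-fold above the mean of the other 4 HFD-MTX50 mice, Orm2 9.44-fold, Orm1 7.54-fold, Orm3 6.90-fold, Saa4 3.67-fold and Hp 2.08-fold. These folds are of scaled levels. The array of mouse 5 had the lowest 75th percentile of the 18, at 1203 against 1660 to 2263 in the other 4. Before scaling, Saa1 read 432822 against 19035 to 60403 in those 4 mice. Saa4 read 24644 against 9047 to 11351, and Hp 431418 against 268578 to 395242. The part of the scaling in these folds was not tested. In mouse 5 the Saa1, Saa2 and Hp probes reached 83.4%, 80.7% and 83.2% of the highest intensity on that array, and whether signals were compressed there was not tested. Leaving it out lowered the SE of each member but Saa3, whose SE rose from 0.34 to 0.37 in HFD-MTX50 vs HFD, and the members are given without it where that moved a value or a call.

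Saa1 and Saa2 encode the inducible SAA proteins that hepatocytes secrete in the acute phase. Saa1 read 1.79, 1.99, 2.38 and 2.05 in the LFD livers and 2.75, 3.31, 3.91 and 3.26 in the HFD livers. Every HFD mouse lay above every LFD mouse. The log2 difference came to 1.26 ± 0.75 (SE), which is 2.39-fold, with a limma adjusted p of 0.205 over 18 mice. Without HFD-MTX50 mouse 5 the difference was the same with an SE of 0.32 and an adjusted p of 0.0104, and the fit of the LFD and HFD mice alone gave 0.00761.

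Saa2 read 1.23, 1.16, 1.73 and 1.35 in the LFD livers and 2.08, 3.37, 3.80 and 2.85 in the HFD livers, again without overlap. The log2 difference of 1.66 ± 0.81 (3.16-fold) had a limma adjusted p of 0.128, which became 0.0160 without HFD-MTX50 mouse 5. With a random slide effect the adjusted p was 0.429 for Saa1 and 0.352 for Saa2 with all 18 mice. Each exact permutation test (two-sided) gave p = 0.0286, the smallest that 4 mice against 4 permit.

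In the LFD-MTX50 livers Saa1 read 2.92, 2.47, 2.96, 2.34 and 2.86, and 4 of the 5 lay above the highest LFD mouse. The log2 difference of 0.66 ± 0.71 from LFD had a limma adjusted p of 0.492, and the fit of these 2 groups alone gave 0.0184. Saa2 read 2.71, 1.90, 2.41, 1.56 and 3.04, with mouse 4 inside the LFD range. Its log2 difference was 0.96 ± 0.77 (limma adjusted p 0.353), and 0.0327 in the fit of the 2 groups alone.

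In the HFD-MTX50 livers Saa1 spread from 3.28 to 8.49, with mice 1 to 5 at 4.74, 4.85, 3.28, 3.56 and 8.49. Mice 3 and 4 lay inside the HFD range and mice 1, 2 and 5 above it. Saa2 had the same split at 5.02, 4.94, 2.88, 3.44 and 8.44. Mice 1 and 2 sat on slide 5 and mice 3 to 5 on slide 6. The gap between mice 1 and 2 and mice 3 and 4 thus cannot be told apart from a slide difference. The log2 differences from HFD were 1.67 ± 0.71 for Saa1 and 1.92 ± 0.77 for Saa2, with limma adjusted p of 0.119 and 0.104, and they fell to 0.80 and 1.05 without mouse 5 (adjusted p 0.137 and 0.176). On the shared slide, HFD-MTX50 mice 1 and 2 exceeded HFD mice 3 and 4 by 1.21 for Saa1 and 1.66 for Saa2.

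Saa4 encodes the constitutive SAA of mouse plasma, and it moved within a smaller range. It read 1.25, 1.73, 1.64 and 1.61 in LFD, 1.70, 1.47, 1.70, 1.54 and 1.72 in LFD-MTX50 and 2.23, 1.80, 1.78 and 2.18 in HFD livers. The HFD mice lay just above the LFD mice, and the LFD-MTX50 mice overlapped them. HFD vs LFD was 0.44 ± 0.32 (1.35-fold; limma adjusted p 0.301), and the adjusted p was 0.0212 without HFD-MTX50 mouse 5 and 0.0449 in the fit of the LFD and HFD mice alone, which called 41.7% of all genes. With a random slide effect it was 0.452. In the HFD-MTX50 livers Saa4 read 2.30, 2.64, 2.54, 2.45 and 4.36, all above the HFD mice. The log2 difference from HFD was 0.86 ± 0.30 (limma adjusted p 0.0707). Leaving out mouse 5 reduced it to 0.48 ± 0.13 and brought the adjusted p to 0.0443, and leaving out mouse 1 gave 1.00 with an adjusted p of 0.0422, whereas with a random slide effect the p was 0.156 over all mice.

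Saa3 is made by macrophages and adipocytes as well as by hepatocytes in the mouse, and it was the SAA gene that the model called. It read −2.26, −2.89, −2.79 and −2.54 in the LFD livers and −1.75, −1.57, −1.52 and −1.54 in the HFD livers. All 4 HFD mice lay above all LFD mice and within 0.24 of each other. The log2 difference of 1.03 ± 0.36 (2.04-fold) passed with a limma adjusted p of 0.0412 (exact permutation p 0.0286). The call was lost under quantile normalization (adjusted p 0.0908), scaling to the median (0.0545), normexp background correction (0.186), a replicate block (0.0588) and a random slide effect (0.207), and without LFD mouse 2, 3 or 4 or HFD mouse 2, 3 or 4 (0.0706 to 0.0999). The LFD-MTX50 livers read −2.26, −2.58, −1.78, −1.81 and −2.38, which overlapped the LFD range, and the difference of 0.46 ± 0.34 had an adjusted p of 0.308.

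In the HFD-MTX50 livers Saa3 read 0.73, 0.16, −1.50, −1.14 and −0.56. All 5 lay above the HFD mice, mouse 3 by a margin of 0.02, and the highest were mice 1 and 2 and not mouse 5. The log2 difference from HFD of 1.13 ± 0.34 (2.19-fold) passed with a limma adjusted p of 0.0414 (exact permutation p 0.0159, the smallest that 5 against 4 mice permit). Without mouse 5 the size stayed at 1.16 while the adjusted p rose to 0.0704, without mouse 1 the difference was 0.84, and 11 of the 18 arrays ended the call when left out (0.05 to 0.110). The difference was 1.98 between the mice that shared slide 5 and 0.59 between those that did not, and the random slide effect gave an adjusted p of 0.0188. With slide as a fixed effect the call was lost (0.062), as it was with normexp background correction (0.381), array weights (0.70, adjusted p 0.0789), a replicate block (0.0761), the methods' t-test (0.199) and the fit of the HFD and HFD-MTX50 mice alone (0.125).

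Adipocyte and macrophage markers were read beside Saa3. The mean of 5 adipocyte markers ran from −4.22 to −3.71 in LFD, −2.49 to −2.12 in HFD and −3.77 to −2.86 in HFD-MTX50 livers. Limma called 3 of the 5 higher in HFD vs LFD (18% of all genes). Of the 5, 1 was called higher and 1 lower in HFD-MTX50 vs HFD (4.83% and 6.13% of all genes). Cfd alone ran from −5.11 to −2.28 in LFD and 1.55 to 2.55 in HFD livers, while Adipoq (−4.70 to −4.35 and −4.55 to −4.41) and Retn overlapped between these groups. In the LFD-MTX50 livers the adipocyte mean ran from −4.09 to −3.32, also with 3 of 5 called higher against LFD (17.6% of all genes). The mean of 8 macrophage markers ran from 0.99 to 1.75 in LFD, 0.89 to 1.40 in HFD, 1.47 to 2.16 in HFD-MTX50 and 1.10 to 1.72 in LFD-MTX50 livers. By limma 0 of the 8 were called in HFD-MTX50 vs HFD (11.0% of all genes). The calls were 2 lower in LFD-MTX50 vs LFD (10.5% of all genes) and 1 lower in HFD vs LFD (10.4%). In whole liver more cells of a type and more RNA per cell cannot be told apart, and the part of these markers in the Saa3 differences was not tested.

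**Figure D2:**
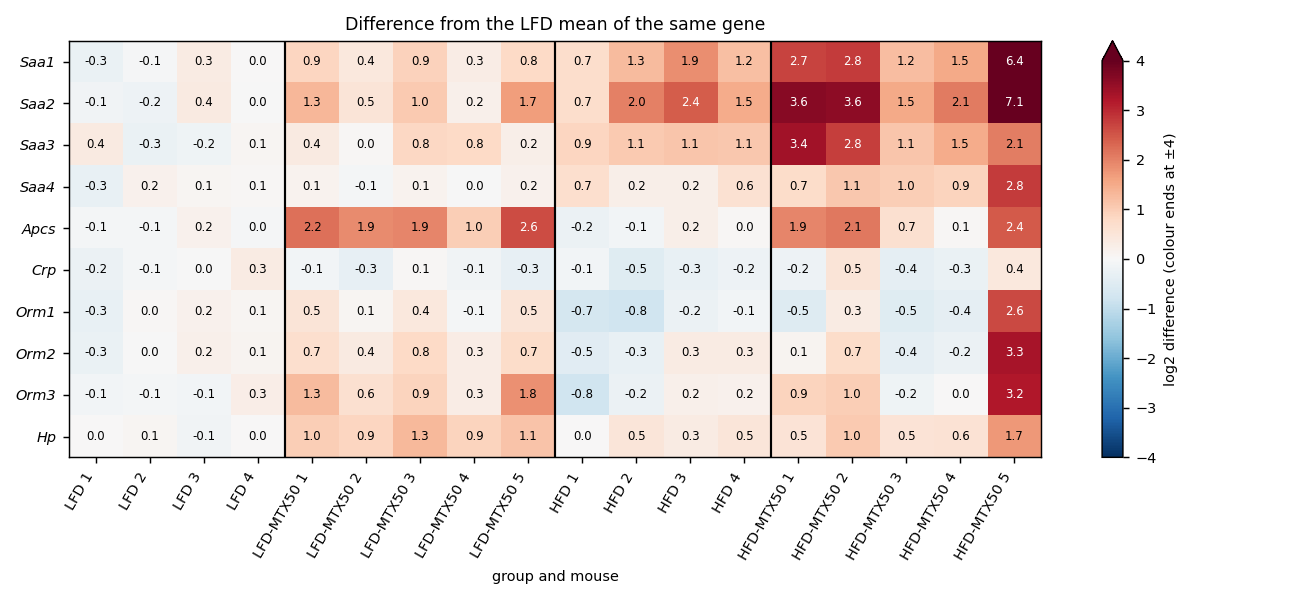
Difference of each liver from the LFD mean of the same gene (log2, colour and printed value), with genes in rows and the 18 mice in columns by group. The group means of the SAA rows rise from LFD to HFD to HFD-MTX50, with only the Saa3 differences called. For Saa1 and Saa2, HFD-MTX50 mice 3 and 4 lie inside the HFD range. The Apcs row is dark in most treated mice of either diet, and HFD-MTX50 mouse 5 differs by 6.4 for Saa1.

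Apcs encodes serum amyloid P component, which coats amyloid fibrils and bacterial surfaces, and it was the only member called with methotrexate on both diets. The LFD livers read −0.26, −0.27, −0.01 and −0.24 and the HFD livers −0.42, −0.29, 0.04 and −0.15. Diet left no visible shift, with a log2 difference of −0.01 ± 0.42 (limma adjusted p 0.989) and means of −0.19 and −0.20. The LFD-MTX50 livers read 2.00, 1.71, 1.75, 0.79 and 2.41. All 5 lay above every LFD mouse, mouse 4 by the least. Apcs differed from LFD by 1.93 ± 0.40 on the log2 scale (3.80-fold) and passed with a limma adjusted p of 0.00453 (exact permutation p 0.0159). The call held without each single array (0.00161 to 0.0162) and was lost with a random slide effect (difference 2.02, adjusted p 0.0642).

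On HFD, treated livers read 1.76, 1.93, 0.46, −0.13 and 2.25 for Apcs. Mice 1, 2 and 5 were near the treated LFD mice, mouse 3 was between, and mouse 4 lay within the range of untreated HFD livers. The log2 difference of 1.46 ± 0.40 (2.75-fold) passed with a limma adjusted p of 0.0317 (exact permutation p 0.0317), and 4 of 5 mice exceeded the highest HFD mouse. The shared slide gave 1.90, the other slides 1.21 and the random slide effect an adjusted p of 0.0309, while slide as a fixed effect (0.164), normexp (0.381) and the methods' t-test (0.168) ended the call. The call was lost without HFD mouse 2, 3 or 4 or HFD-MTX50 mouse 2 or 5 (0.0513 to 0.0873), and the fit of the HFD and HFD-MTX50 mice alone (0.103) called 0 of all 19597 genes. The treatment differences on the 2 diets differed by −0.47 ± 0.57 (adjusted p 0.553).

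Crp encodes the other short pentraxin and showed no call. It ranged from 2.00 to 3.00 over the 18 livers, a 2.00-fold span that was the narrowest of the members. The LFD livers read 2.26, 2.42, 2.46 and 2.82, and the HFD livers 2.37, 2.00, 2.19 and 2.30. The treated livers read 2.37, 2.16, 2.55, 2.35 and 2.16 on LFD and 2.29, 3.00, 2.14, 2.21 and 2.91 on HFD. All groups overlapped, and the log2 differences of −0.27, −0.17 and 0.29 had limma adjusted p of 0.269, 0.476 and 0.262 for HFD vs LFD, LFD-MTX50 vs LFD and HFD-MTX50 vs HFD, the last being 0.19 (adjusted p 0.499) without mouse 5.

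**Figure D3:**
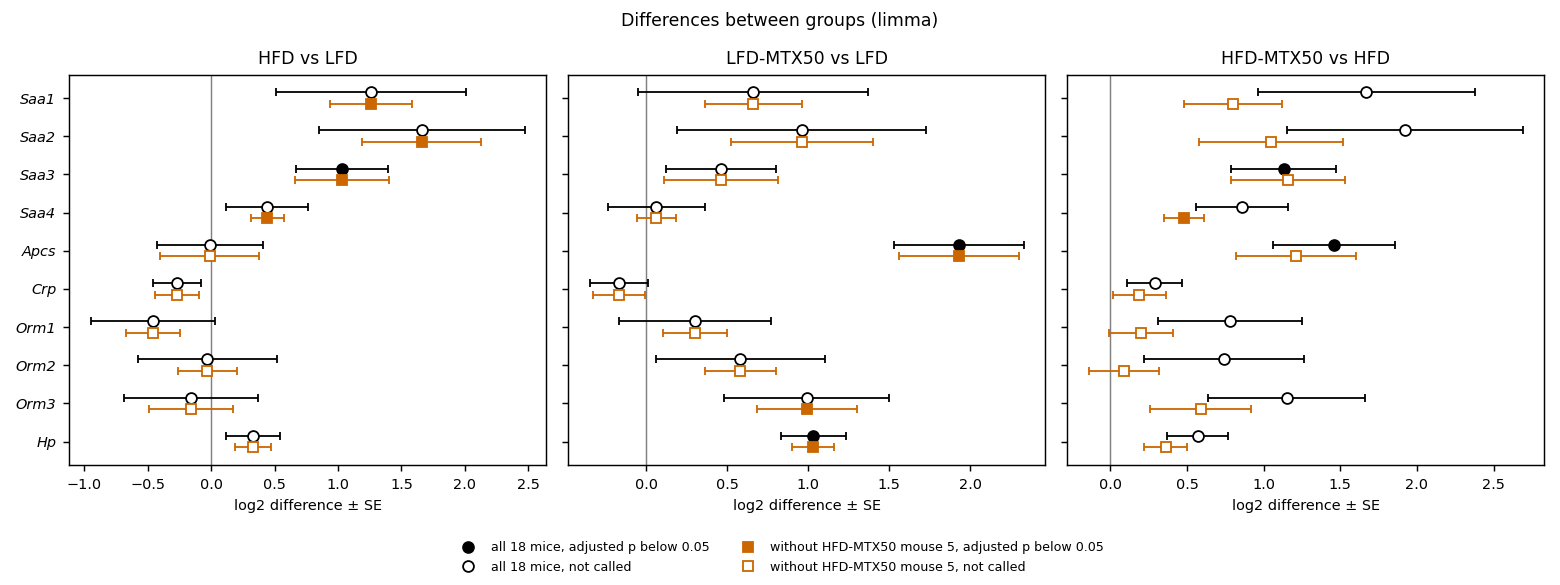
Log2 difference ± SE of each gene in 3 comparisons from limma, with all 18 mice (black circles) and without HFD-MTX50 mouse 5 (orange squares); filled symbols have an adjusted p below 0.05. In HFD vs LFD the SAA genes are filled only for Saa3 with all mice (28.3% of all genes called) and for all 4 without that mouse (32.1%). Apcs and Hp are filled in LFD-MTX50 vs LFD with either set.

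The orosomucoid genes encode acid glycoproteins that bind drugs and steroids in plasma. Orm1 read 3.12, 3.48, 3.59 and 3.51 in LFD and 2.74, 2.64, 3.19 and 3.31 in HFD livers, with 2 of 4 HFD mice below every LFD mouse. These were the 2 HFD mice on slide 4. The treated livers read 3.96, 3.52, 3.85, 3.35 and 3.95 on LFD and 2.90, 3.77, 2.93, 3.06 and 6.08 on HFD. Mice 2 and 5 of the HFD-MTX50 group lay above the HFD range, mouse 5 by 2.77. The log2 differences were −0.46 ± 0.49 in HFD vs LFD, 0.30 ± 0.47 in LFD-MTX50 vs LFD and 0.78 ± 0.47 in HFD-MTX50 vs HFD (limma adjusted p 0.493, 0.646 and 0.264), and the last was 0.20 without mouse 5.

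Orm2 read 1.83, 2.07, 2.29 and 2.20 in LFD livers and 2.76, 2.46, 2.91, 2.40 and 2.84 in LFD-MTX50 livers. The 2 groups did not overlap. A log2 difference of 0.58 ± 0.52 had a limma adjusted p of 0.409, with 0.0157 in the fit of these 2 groups alone and an exact permutation p of 0.0159. On HFD, Orm2 read 1.64, 1.79, 2.42 and 2.43 in untreated and 2.20, 2.84, 1.75, 1.85 and 5.40 in treated livers, which overlapped. The difference of 0.74 ± 0.52 (limma adjusted p 0.340) was 0.09 without mouse 5.

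Orm3 had the largest LFD-MTX50 vs LFD difference of its family. It read 1.10, 1.15, 1.11 and 1.50 in LFD and 2.50, 1.85, 2.12, 1.51 and 3.05 in LFD-MTX50 livers, where mouse 4 exceeded the highest LFD mouse by 0.01. Orm3 thus differed by 0.99 ± 0.51 on the log2 scale (1.99-fold, limma adjusted p 0.144), with 0.0251 without HFD-MTX50 mouse 5 and 0.352 with a random slide effect. On HFD it read 0.43, 0.99, 1.42 and 1.38 in untreated and 2.11, 2.19, 1.06, 1.22 and 4.43 in treated livers, with mice 1, 2 and 5 above the HFD range and mice 3 and 4 inside it. The difference was 1.15 ± 0.51 (limma adjusted p 0.134), or 0.59 without mouse 5. In HFD vs LFD neither Orm2 (−0.03) nor Orm3 (−0.16) passed, and the Orm2 sign turned under quantile normalization (0.08).

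Hp encodes haptoglobin, whose complex with haemoglobin is taken up through the macrophage receptor Cd163. It read 6.77, 6.83, 6.62 and 6.78 in LFD livers and 7.74, 7.62, 8.04, 7.63 and 7.89 in LFD-MTX50 livers. The groups were separated by 0.79, and the LFD mice spread over only 0.21. The log2 difference of 1.03 ± 0.20 (2.05-fold) passed with a limma adjusted p of 0.00339 (exact permutation p 0.0159). The call held without each single array (0.000395 to 0.0131) and was lost with a random slide effect (1.05, adjusted p 0.0665) and with normexp background correction (0.65, adjusted p 0.194).

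On HFD, Hp read 6.77, 7.23, 7.07 and 7.24 in untreated livers, 3 of 4 of them above every LFD mouse, and the diet difference of 0.33 ± 0.21 had a limma adjusted p of 0.242. Hp was called under quantile normalization (0.50, adjusted p 0.0401) and with array weights (0.42, 0.0133), and its difference was −0.02 with normexp. Treated HFD livers read 7.30, 7.79, 7.30, 7.34 and 8.49. All 5 lay above the HFD mice, the closest by 0.06. Treatment on HFD gave 0.57 ± 0.20 (1.48-fold) at a limma adjusted p of 0.0724 (exact permutation p 0.0159), and 0.36 without mouse 5, while without mouse 1 it was 0.65 with an adjusted p of 0.0449. The treatment difference on HFD was smaller than that on LFD by 0.47 ± 0.28 with all mice (adjusted p 0.222), and by 0.68 ± 0.19 without HFD-MTX50 mouse 5 (adjusted p 0.0217).

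The difference between the methotrexate effects on the 2 diets was called for 0 of the 10 members by limma (26.8% of all genes tested were called), and 0 had an unadjusted p below 0.05. The differences ran from −0.47 for Apcs and Hp to 1.02 for Saa1. Hp was the 1 member called when HFD-MTX50 mouse 5 was left out (22.8% of all genes) and when arrays were weighted. Among the members, groups did not overlap for 4 of 10 in HFD vs LFD (40.3% of all genes tested), namely the 4 SAA genes. The same held for 4 of 10 in LFD-MTX50 vs LFD (29.1%), which were Apcs, Orm2, Orm3 and Hp, and for 3 of 10 in HFD-MTX50 vs HFD (11.4%), which were Saa3, Saa4 and Hp.

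Most members varied together from mouse to mouse within groups, and the strength of this depended on HFD-MTX50 mouse 5. On deviations from the group means over 18 mice, Pearson's r was 0.97 between Saa1 and Saa2, 0.98 between Orm1 and Orm2, 0.97 between Saa1 and Orm2 and 0.86 between Saa1 and Hp. Saa3 reached 0.23 with Saa1, 0.13 with Orm2 and −0.14 with Saa4. Without HFD-MTX50 mouse 5 the median r over the 45 pairs was 0.59 instead of 0.74, the Saa1 and Saa4 value fell from 0.84 to 0.43, and Saa1 with Saa2 was at 0.95. Saa3 then reached 0.50 with Saa1 and 0.52 with both Saa2 and Apcs, while Saa2 with Saa4 was at 0.25 and Saa4 with Apcs at 0.21. These are descriptions of the same arrays, and near-identical genes such as Saa1 and Saa2, or the orosomucoids, may share signal on probes whose sequences were not analysed here.

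Outside the members, the genes most like them were sought among 17516 genes by the same measure. Saa1 was followed most closely by Cep55 (0.97), Clec3b (0.97) and Cyth3 (0.95), and Orm2 by Clec3b (0.97), Cep55 (0.97) and the neutrophil protease gene Prtn3 (0.95). Hp was nearest to H1f5 (0.93), Sys1 (0.91) and Arl15 (0.91). Saa3 was nearest to Atp6v0e (0.94), Tuba8 (0.92) and Mss51 (0.91), none of which was shared with Saa1. Apcs was followed by Olfr1260 (0.98), Krtap11-1 (0.95) and Serpina3n (0.95), an acute-phase protease inhibitor. Without HFD-MTX50 mouse 5 the 3 genes nearest to Saa3 and to Apcs were the same, while Cpne8 took the place of Cyth3 beside Saa1 and Sys1 that of Prtn3 beside Orm2. Hp kept H1f5 and was then nearest to Serpini2 and Basp1 in place of Sys1 and Arl15.

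**Figure D4:**
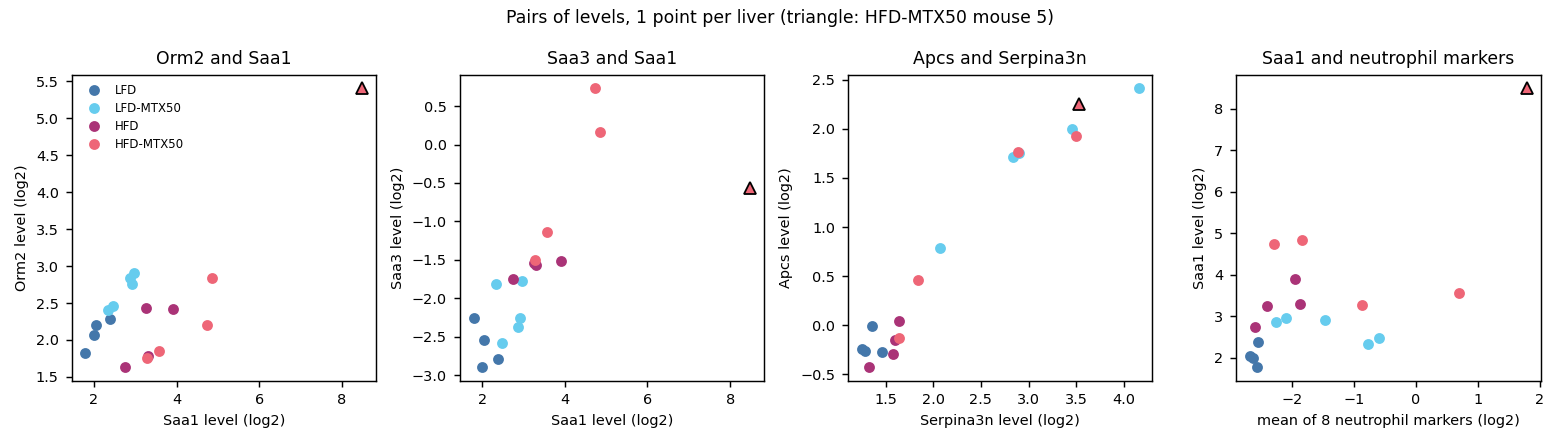
Levels (log2) of pairs of genes, and of Saa1 against the mean of 8 neutrophil markers, with 1 point per liver coloured by group. The triangle is HFD-MTX50 mouse 5, and the marker mean of HFD-MTX50 mouse 4 lacks Mmp8. Orm2 and Saa1 are both highest in that mouse, Saa3 is highest in HFD-MTX50 mice 1 and 2, and Apcs rises with Serpina3n over mice of both diets.

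Serpina3n and the metallothionein genes, which bind zinc and are inducible in the acute phase, also varied among the treated mice, and Serpina3n is shown because it was among the genes nearest to Apcs. Mt1 read 6.66, 5.45, 7.12, 2.29 and 7.48 in LFD-MTX50 and 5.78, 7.40, 5.22, 3.04 and 7.51 in HFD-MTX50 livers, against 0.41 to 2.03 in the untreated livers. Mouse 4 had the lowest Mt1 and the lowest Apcs of the treated group on either diet. Serpina3n read 3.45, 2.83, 2.90, 2.07 and 4.15 in LFD-MTX50 and 2.89, 3.50, 1.84, 1.64 and 3.53 in HFD-MTX50 livers, where mouse 4 was again the lowest.

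The rest of the pathway was read through 6 lists with 75 genes, of which 74 were tested. In LFD-MTX50 vs LFD limma called 29 higher and 1 lower, in HFD-MTX50 vs HFD 22 higher and 2 lower, and in HFD vs LFD 5 higher and 6 lower. Of all genes, 17.6% were called higher and 10.5% lower in the first of these, 4.83% and 6.13% in the second and 18% and 10.4% in the third. The median log2 difference over the lists was 0.35, 0.44 and −0.10 in that order, against 0.10, −0.04 and 0.08 over all genes. With a random slide effect, 4, 20 and 0 of the list genes were called. The shares of all genes called under that model are not given, so its counts here and below have no background beside them.

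The list of inducing cytokines held 9 genes. Il6, the main driver of the response, read 0.21 to 0.59 in LFD and 0.98 to 1.88 in LFD-MTX50 livers, which did not overlap, and the difference of 1.06 ± 0.41 had a limma adjusted p of 0.0591. On HFD it read 0.46 to 1.11 in untreated and 1.43, 2.75, 1.04, 0.93 and 3.53 in treated livers, highest in mouse 5 (1.09 ± 0.41, adjusted p 0.0846). The calls were Osm higher (0.41) and Il22 lower (−0.32) on LFD with the drug, and Lif higher (0.70) and Il22 lower (−0.58) on HFD with it, where Lif was lost without mouse 5 (0.113). In HFD vs LFD the calls were Tnf (0.62), Il11 (0.55) and Osm (0.46), 3 of 9 and all higher.

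Most calls among receptors and signalling genes were toward higher levels with methotrexate. Of 8 cytokine receptors 4 were called higher on LFD, namely Il6ra (1.50), Osmr (1.22), Il1r1 (1.13) and Il22ra1 (0.58). On HFD the calls were Il1r1 (1.94) and Il6ra (1.21) higher and Il22ra1 lower (−0.44). None of the 4 on LFD held with a random slide effect (0.0677 to 0.176), while the 3 on HFD did. When HFD-MTX50 mouse 5 was left out, the 4 on LFD held, and on HFD Il1r1 held but Il6ra (0.0626) and Il22ra1 (0.0803) did not. Of 16 signalling and transcription factors 6 were called higher on LFD, among them Cebpd (1.54), the feedback inhibitor Socs3 (1.42), Cebpb (1.04) and Stat3 (0.95). On HFD they were Socs3 (1.84), Hnf4a (0.51) and Jak1 (0.39), 3 of 16, of which Hnf4a was lost without mouse 5 (0.0845). Stat3 and Nfkbiz were the 2 of the 6 calls on LFD that held with a random slide effect. In HFD vs LFD, Il22ra1 (0.65) was called higher and Hnf4a (−0.55) and Jak1 (−0.40) lower.

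Other positive acute-phase genes gave the highest share of calls, with 14 of 21 called higher on LFD and 14 of 21 on HFD, and 12 of them were called on both diets. On LFD the largest were Mt2 (5.15), Mt1 (4.84), the endotoxin carrier Lbp (1.78) and Serpina3n (1.74). On HFD they were Mt2 (4.95), Mt1 (4.46), the inter-alpha-trypsin inhibitor heavy chain gene Itih3 (1.60) and Lbp (1.40). With a random slide effect 2 of the 14 calls on LFD, Lbp and Cp, and 11 of the 14 on HFD held. Without HFD-MTX50 mouse 5 the counts were 17 and 13, where 31.7% and 5.61% of all genes were called. In HFD vs LFD 0 were called higher and the 3 fibrinogen chains lower, with differences of −0.67 for Fga, −0.53 for Fgg and −0.46 for Fgb. The 8 negative acute-phase genes, which fall in inflammation, gave 1 call, Apoa1 higher on LFD with the drug (0.74).

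Of the 12 tested partners and receptors of the members, 3 were called higher in LFD-MTX50 vs LFD: the haptoglobin receptor Cd163 (0.85), Ager (0.56) and the clearance receptor Lrp1 (0.42). In HFD-MTX50 vs HFD they were the SAA receptors Fpr2 (0.96) and Scarb1 (0.63). HFD vs LFD had Ager higher (0.57) and Scarb1 lower (−0.68). When HFD-MTX50 mouse 5 was left out, neither Fpr2 (limma adjusted p 0.0735) nor Scarb1 (0.0986) was called in HFD-MTX50 vs HFD. With a random slide effect Fpr2 was the 1 call of the 7 that held (0.0469).

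**Figure D5:**
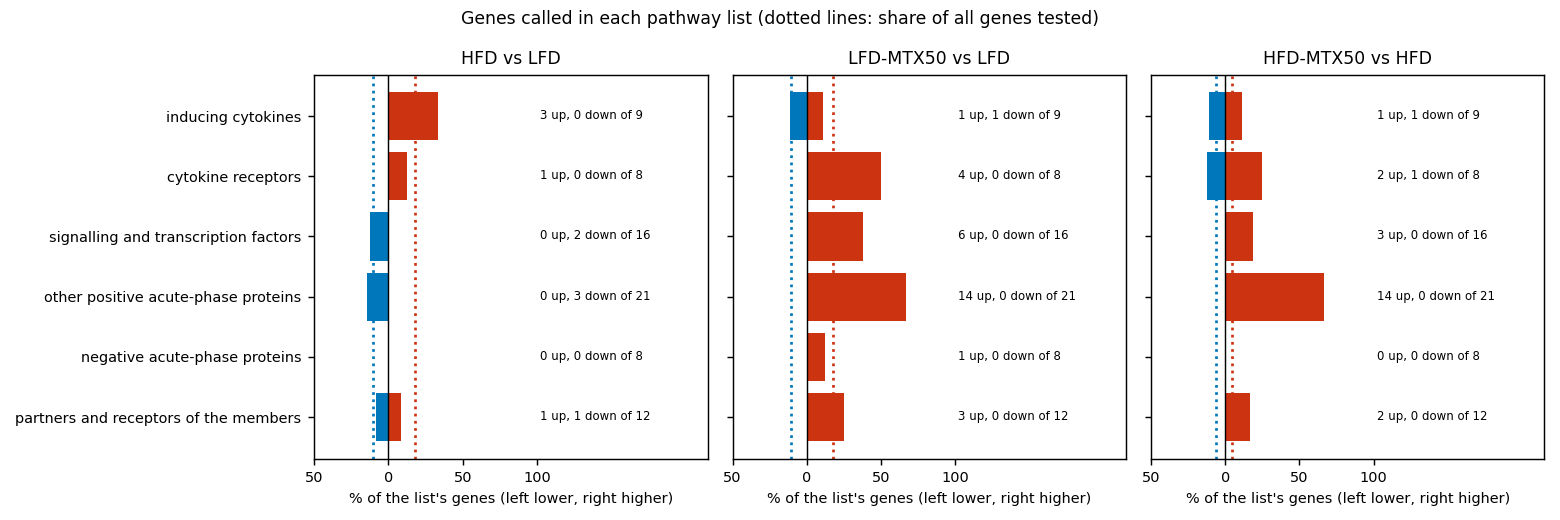
Share of each pathway list called higher (red, to the right) and lower (blue, to the left) in 3 comparisons by limma at an adjusted p below 0.05, with the counts printed; dotted lines give the shares over all genes tested. Other positive acute-phase proteins have 14 of 21 genes called higher with methotrexate on each diet.

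Of the 8 neutrophil markers, all but Elane were highest in HFD-MTX50 mouse 5 (the share of all genes is not given). The mean of the 8 ran from −2.69 to −2.56 in LFD, −2.27 to −0.60 in LFD-MTX50, −2.61 to −1.88 in HFD and −2.30 to 1.79 in HFD-MTX50 livers. In the last group mouse 5 was highest and mouse 4 next at 0.69. The mean of mouse 4 lacks Mmp8, which had no value there and read −6.62 to −6.60 in HFD-MTX50 mice 1 to 3, so it is not on the same footing as the others. S100a9 read 4.93 in mouse 5, and the granule gene Mpo 2.76 against −3.15 to −1.79 in the other 17 livers. Elane read 6.11 in mouse 5, within the 5.47 to 6.36 of the other HFD-MTX50 mice. It read 6.08 to 6.35 in LFD and 5.64 to 5.75 in LFD-MTX50 livers. In the LFD-MTX50 group mice 2 and 4 had the highest marker means (−0.60 and −0.77) while their Saa1, at 2.47 and 2.34, was the lowest of the group. Limma called 0 of the 8 in HFD-MTX50 vs HFD (11.0% of all genes), and 2 higher and 1 lower in LFD-MTX50 vs LFD (17.6% and 10.5% of all genes). Between 6 and 8 of the markers were above background in every liver, and Ngp was not above background in LFD, HFD and several treated livers. The part of these cells in the values of mouse 5 was not tested.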

How the data were processed

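Liver RNA of 18 mice was measured on 18 Agilent arrays, 1 per mouse, grouped from the labels. Per the file headers, the authors' deposited scanner files hold spot intensities on a linear scale, extracted with Agilent Feature Extraction 10.7.3.1 (background subtracted and trends removed within each array, no normalization between arrays). The deposited series table holds background-subtracted intensities of the same scans, rounded, and was used as an alternative. It did not give the same values as the processed signal. The Hp log2 difference in LFD-MTX50 vs LFD was 0.94 with the table and 1.03 in the main setting.

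Here log2 of the processed signal was reduced by each array's 75th percentile, the software's outlier spots were dropped, replicate spots of a probe were averaged, and probes well above background on at least 4 of 18 arrays were kept (35735 of 39429). Probes were named by accession through RefSeq (GRCm38.p6), where Saa1 and Saa2 list each other's symbol as a synonym, so those 2 names follow the accessions. A gene with several probes was read on its brightest. The 4 groups were fitted together with limma 3.58.1 (R 4.3.3) after tests on simulated data, adjusted by Benjamini-Hochberg across every probe kept, and a call at an adjusted p below 0.05. The number of arrays limits the precision. Single values also got an exact two-sided permutation test of the group means, whose smallest p is 0.0286 for 4 against 4 mice and 0.0159 for 5 against 4.

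The members, the pathway and marker lists and the tests were chosen with earlier results of these data known. From each pathway list, the called genes with the largest difference are named, at most 4 per comparison. The genes most like a member are the 3 with the highest Pearson correlation of deviations from the group mean, among genes above background on all 18 arrays. Alternatives were normexp background correction with an offset of 50 (on median signals, as the mean signal was not used here), quantile normalization, scaling to the median of bright probes, the series table, outlier spots kept, no or a strict filter on dim probes, an intensity trend in robust variances, fits of the compared groups alone, the methods' t-test, other thresholds (unadjusted p up to 0.015, or 2-fold), a random or fixed slide effect, a replicate block, probe means, each array left out, and array weights (added after the data were seen). Promoter windows were aligned with Biopython 1.88.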

Additional observations from a re-analysis of the deposited data

Results flagged for a closer look

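Over the 40 combinations of 10 members and 4 groups, 4 had a mouse far from the others of its group by Dixon's criterion, which chance alone meets in about 1 of 20 groups. In HFD-MTX50 mouse 5 the gap to the nearest mouse was 0.835 of the group's range for Saa4 (level 4.36) and 0.724 for Orm1 (level 6.08). The 2 others were within narrow LFD groups: LFD mouse 3 for Apcs (0.888 of the range, level −0.01) and LFD mouse 4 for Orm3 (0.874, level 1.5).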

How the results depend on the processing

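Over 660 values of single members under the other settings (leaving out arrays aside), 13 changed sign, 20 lost and 24 gained a call. Members called in HFD vs LFD, 1 in the main setting, numbered 0 with normexp, scaling to the median, a random slide effect and the replicate number as a block. They numbered 3 with either form of the methods' t-test, 4 with only the groups compared (41.7% of all genes were called) and 4 with array weights. In LFD-MTX50 vs LFD the 2 members became 1 with normexp, 0 with a random slide effect, 4 with either t-test and 6 with only the groups compared (31.7% of all genes). In HFD-MTX50 vs HFD the 2 members became 0 with normexp, only the groups compared, both t-tests and the slide as a fixed block, 1 with the replicate block and 4 with limma at an unadjusted p up to 0.015. With only the groups compared, 0 of all genes were called there. Shares of all genes under the remaining settings are not given here. For the difference between the diets 0 became 1 with array weights. The causes were not tested.

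Pathway genes called in HFD vs LFD, 11 in the main setting, were 0 with normexp, a random slide effect or the 2-fold limit and 4 with quantile normalization. They were 26 with only the groups compared (41.7% of all genes), 23 and 20 with the t-tests (adjusted and unadjusted) and 29 with array weights. In LFD-MTX50 vs LFD the 30 became 2 with normexp, 13 with the 2-fold limit and 4 with the random slide effect. In HFD-MTX50 vs HFD the 24 became 0 with normexp, only the groups compared, the adjusted t-test and the fixed slide block, and 10 with the 2-fold limit.

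With each array left out in turn, members called ran from 0 to 4 in HFD vs LFD, 2 to 3 in LFD-MTX50 vs LFD, 0 to 3 in HFD-MTX50 vs HFD and 0 to 1 for the difference between the diets. The highest value in HFD vs LFD and for the difference between the diets came without HFD-MTX50 mouse 5, where 32.1% and 22.8% of all genes were called. Pathway genes called ran from 4 to 16, 22 to 35 and 11 to 27.

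Signs turned only for differences that were not called. In HFD vs LFD, Orm2 was 0.08 with quantile normalization, 0.05 with the random slide effect and 0.03 with array weights, and Hp was −0.02 with normexp. In LFD-MTX50 vs LFD, Saa4 was −0.11 with normexp, −0.04 with scaling to the median and −0.13 with the replicate block, and Orm1 was −0.02 with the replicate block. For the difference between the diets, Orm2 was −0.03 with quantile normalization, −0.04 with the random slide effect and −0.31 with array weights, and Orm3 was −0.06 and −0.39 with the last 2. Leaving out an array turned Apcs (−0.09 to 0.06), Orm2 (−0.15 to 0.12) and Orm3 (−0.29 to 0.05) in HFD vs LFD, Saa4 (−0.04 to 0.12) in LFD-MTX50 vs LFD, and Orm1 (−0.10 to 0.69), Orm2 (−0.49 to 0.43) and Orm3 (−0.40 to 0.44) for the difference between the diets.

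The labels give replicate numbers and do not say whether these pair the mice. Over 12 pairs of same-numbered mice, deviations from the group means correlated between −0.31 and 0.25, with 3 above 0.1. Such values cannot show how the mice were handled. With the replicate number as a block, the Saa3 adjusted p was 0.0588 in HFD vs LFD and 0.0761 in HFD-MTX50 vs HFD, and the 3 other calls of members held. Each member rests on 1 probe, so the mean of a gene's probes changed none of the members' counts.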
